A study of Drosophila melanogaster with 2 samples.

Results

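The peaks that the authors called for the protein kay on both replicates pooled included 3854 on the autosomes 2L, 2R, 3L, 3R and 4, and 1160 of these lay at promoters of protein-coding genes. A peak was counted there when its summit was within 500 bp of an annotated transcription start and the nearest start belonged to a protein-coding gene, with transposable elements left out. The 1160 promoter peaks were ranked by the authors' peak signal, so rank 1 is the highest. They were assigned to 911 genes by nearest start, and 181 of the peaks also had the start of another gene within 500 bp of the summit, so the gene named for them is the nearest and not the only candidate.

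The data are chromatin immunoprecipitation with sequencing (ChIP-seq) on whole adult males of Drosophila melanogaster of unknown age, from 1 transgenic line that carries kay with GFP fused to its C-terminal end. The fusion protein was precipitated with an antibody against GFP, and the chromatin had been sonicated to 200 to 800 bp, per the labels. The 2 libraries are biological replicates of this 1 group, numbered 1 and 3 in the labels, so no condition is compared. No control library was analysed here, all flies carry the same fusion, and a whole animal mixes all tissues, so binding in few cells and weak binding in many cannot be told apart.

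The kay gene encodes Fos in flies, a transcription factor of the basic leucine zipper (bZIP) family. With Jra, the Jun of flies, it forms the AP-1 dimer, which binds the sequence TGACTCA and acts downstream of the Jun kinase (JNK) cascade in wound healing, epithelial closure, stress and immune responses. A promoter is the stretch around a transcription start where the transcription machinery assembles, and factors bound farther away can be crosslinked to it through contacts between proteins.

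Of the 10 motifs searched, the AP-1 site differed most clearly between the highest promoter peaks and the rest (the lowest adjusted p), so the sites nearest to 8 high summits are shown, each with 11 bases to either side, read 5′ to 3′ on the strand that holds TGACTCA, which is in capitals. The bases come from the Release 6 genome sequence (dm6).
CG11050: cccagccctgaTGACTCAagcaagcagct
chic: gagtgaacgggTGACTCAcggcttggaat
Rac2: caccgagcgaaTGACTCActgtgactaat
CG11791: agctacgaatcTGACTCAtgtgcgctcgc
Rab5: atagataaatgTGACTCActagtagatgg
Sirt1: tgccgccagcaTGACTCAtcacggtatgt
Fer2LCH: ctgctggaaggTGACTCAcgacagggttg
cnc: tcgaatagcgaTGACTCAgcagtttaaaa

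The CG11050 window is chr2L:6610958-6610986 on the plus strand, and the site lies 39 bp upstream of the start and 21 bp from the summit. The chic window, chr2L:5980233-5980261 on the minus strand, lies downstream of the start of the gene for profilin, an actin-binding protein, with the site 71 bp from the summit. The Rac2 window is chr3L:7435392-7435420 on the minus strand, 26 bp from the summit, and Rac2 is a small GTPase of the actin cytoskeleton. The CG11791 window is chr3R:25050253-25050281 on the minus strand. The Rab5 window, chr2L:2365243-2365271 on the minus strand, belongs to the small GTPase of early endosomes. Sirt1 encodes a protein deacetylase, and its window is chr2L:13165470-13165498 on the minus strand. Fer2LCH encodes a light chain of the iron store ferritin, and its window is chr3R:30388645-30388673 on the minus strand. The cnc window is chr3R:23190488-23190516 on the plus strand, only 4 bp from the summit, and cnc encodes the fly counterpart of the antioxidant factor Nrf2.

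The signal is the authors' own value per peak. It has its own scale in each list, so signals were compared within a list only. In the pooled list, promoter peaks had signals between 31.7 and 395.66 with a median of 47.3, and the lowest was at gdrd, a gene named here after its value was seen. The pooled list was deposited as peaks and background that serve as input for the irreproducible discovery rate (IDR) step, which compares the ranks of peaks between replicates, and it holds many peaks below any threshold. Only 125 of the 1160 promoter peaks had a q-value of at most 0.05, and 69 were in the authors' optimal list, which is what the IDR step left. Of these 69, 60 overlapped a peak in the deposited list of replicate 1 and 9 did not. All 69 were among the 100 highest promoter peaks, and all 100 of those had a q-value of at most 0.05.

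The highest promoter peak, at CG14100, had a signal of 395.66 in the pooled list, 163.90 in replicate 1 and 230.50 in replicate 3. CG11050 had 370.35 in the pooled list, 162.43 in replicate 1 and 202.82 in replicate 3. The chic peak had 369.80 in the pooled list, 166.76 in replicate 1 and 197.16 in replicate 3. These 3 peaks were close to each other in every list, at ranks 40 to 44 of all peaks in replicate 1 and 32 to 38 in replicate 3. Rac2 had 368.94 in the pooled list, 169.94 in replicate 1 and 201.27 in replicate 3. CG10527 had 358.12 in the pooled list, 206.80 in replicate 1 and 176.60 in replicate 3. Syp, which encodes an RNA-binding protein, had 357.92 in the pooled list, 147.15 in replicate 1 and 220.22 in replicate 3. CG10527 ranked higher in replicate 1 than the other 5, and Syp ranked lower there. The next 4 were Wbp2 (330.12 in the pooled list), CG34133 (314.94), TP53INP (306.75) and aqz (304.21), after which the signal dropped to 242.80 at rank 11.

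Rank 11 was Jra itself, the partner of kay in AP-1. The Jra peak had 242.80 in the pooled list, 129.28 in replicate 1 and 114.42 in replicate 3, and peaked 87 bp downstream of the start. A second Jra peak at rank 386 had 58.5 in the pooled list, peaking 293 bp downstream of the start, and a TGACTCA site lay 49 bp away. In each replicate, the highest peak that overlapped the 2 Jra peaks was the same. Lower replicate peaks beside it were not looked for. No promoter peak was assigned to kay, and 0 pooled peaks of any kind lay in or within 1 kb of the kay gene.

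The genes at ranks 12 to 25 had varied roles. Vps60 and Chmp1, subunits of the ESCRT-III complex that cuts membranes in endosomes, had 212.87 and 202.22 in the pooled list. Rab5 had 208.37, and Rep, the escort protein that hands Rab proteins over for lipid attachment, had 166.83. In other roles, aay, a phosphoserine phosphatase of serine synthesis, had 219.32, and Sox14, a transcription factor of the ecdysone response, had 217.20. Hmg-2 had 201.65, the mitochondrial ribosomal protein gene mRpL41 had 194.10 and PAN3, a subunit of a deadenylase that shortens mRNA tails, had 179.70. The rest were CG11791 with 233.11, Galphai, a G protein subunit, with 179.67, osi with 169.96, EndoGI, an inhibitor of endonuclease G, with 168.55, and CG5335 with 166.62. All 25 highest promoter peaks were in the optimal list, against 44 of the next 75.

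Over all ranks together, promoter peaks were found in both replicates more often than intron peaks, the largest other class. An intron peak here is an autosomal peak beyond 500 bp of any start with its summit in an intron. A peak was called found when a peak of the replicate's own list overlapped it by at least 1 bp, which held in both replicates for 564 of 1160 promoter peaks (48.6%, 95% Wilson interval 45.8 to 51.5) and for 659 of 1766 intron peaks (37.3%). The odds ratio was 1.59 by Fisher's exact test, two-sided over peaks (p = 1.71e-09, adjusted p = 2.06e-08 by Benjamini-Hochberg over the tests of this family), and the share over all autosomal pooled peaks was 39.5%. The order turned among the 500 highest autosomal peaks, where 80.3% of promoter peaks and 89.0% of intron peaks were found in both replicates (Fisher's exact test, p = 0.0198). The promoter and intron shares were 69.7% and 67.7% at ranks 501 to 1000, and 45.8% and 43.5% at ranks 1001 to 2000. At ranks 2001 to 3854 they were 24.55% and 16.1%, and these bands were not tested. The measure follows rank and promoter peaks made up more of the high ranks, so the difference over all ranks also holds that mix. Against autosomal promoters of noncoding genes (43.5% of 177 peaks) and X promoters of protein-coding genes (43.6% of 140) the difference did not pass Fisher's exact test (adjusted p = 0.441 for each). Each peak enters these tests as an independent unit, so the p-values hold no spread between animals, and all intervals cover counting error only.

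The replicates contributed unequally. Replicate 1 had 2060 peaks and replicate 3 had 13835, and promoter peaks were overlapped in replicate 1 in 609 cases (52.5%) and in replicate 3 in 1105 cases (95.3%). Only 10 promoter peaks were found in neither. The share found in both was 88.0% for ranks 1 to 25, 81.3% for ranks 26 to 100, 76.0% for ranks 101 to 300, 57.3% for ranks 301 to 600 and 28.0% for ranks 601 to 1160. Of the 100 highest promoter peaks, all had a peak in replicate 3 and 17 had none in replicate 1. Among the 17, named here after their values were seen, were aay with 120.36 in replicate 3, Rep with 100.09, CG5335 with 89.5, Hsp27, a small heat shock protein gene, with 73.2, and Rab7, a small GTPase of late endosomes, with 68.4. Each pooled peak was given the highest replicate peak that overlapped it, and neighbouring pooled peaks can share 1 such peak. This held for 170 promoter peaks in replicate 1 and 236 in replicate 3. The correlation below counts a shared replicate peak once for each pooled peak. Across the 564 promoter peaks found in both, the replicate signals had a Spearman correlation of 0.59, against 0.56 across the 659 intron peaks, as a description over peaks of the same 2 libraries. The summits of the overlapping replicate peaks lay at a median of 25 bp in replicate 1 and 22 bp in replicate 3 from the pooled summit.

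**Figure D1:**
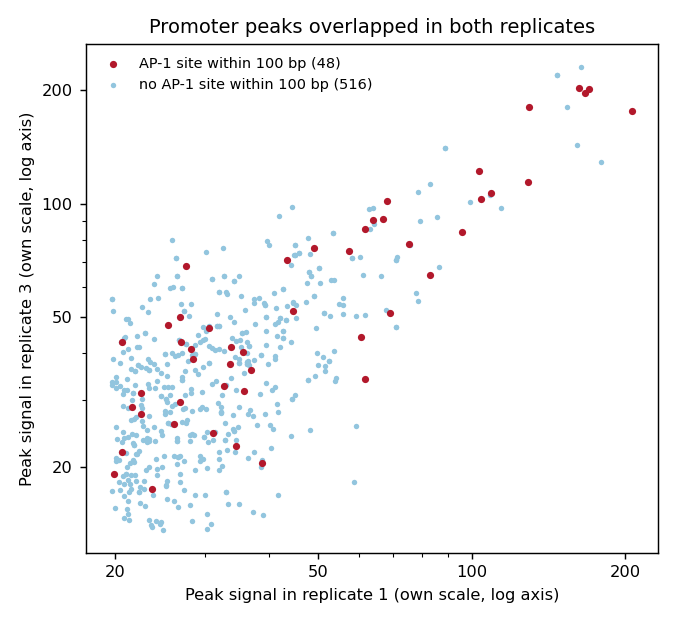
Signal of the overlapping peak in replicate 3 (vertical, log axis) against that in replicate 1 (horizontal, log axis) for the 564 promoter peaks found in both, each list on its own scale. Each point is 1 promoter peak at the signal of the highest replicate peak that overlaps it, so neighbouring promoter peaks can share a position. The 48 with an AP-1 site within 100 bp of the summit are dark red. They occur along the whole range, and a group of them stands at the upper right with CG11050, chic, Rac2 and CG10527. The rank 386 Jra peak, with a site, stands where the rank 11 Jra peak does (129.28 in replicate 1, 114.42 in replicate 3).

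Summits lay mostly just upstream of the start. Of the 1160 summits, 801 were upstream, 353 downstream (30.4%, 95% Wilson interval 27.9 to 33.1) and 6 at the start itself, and the median position was 101 bp upstream. The highest peaks were closer packed: 67.0% of the 100 highest (57.3 to 75.4) had the summit 0 to 300 bp upstream, against 50.5% of the other 1060 (47.5 to 53.5). The downstream share was 20.0% among the 100 highest (13.3 to 28.9) and 31.4% among the others (28.7 to 34.3), and this difference was not tested. The replicates alone gave downstream shares of 28.5% in replicate 1 (624 promoter peaks by the same rule) and 33.0% in replicate 3 (3027 promoter peaks). Chromosome 4 differed: 31 of its 49 summits were downstream (63.3%, 49.3 to 75.3), against 29.0% on the other autosomes, which was not tested. At the 500 bp limit, the 28 promoter peaks whose summits lay at most 20 bp inside it had a median signal of 43.7 (31.8 to 154.23), and the 20 autosomal peaks at most 20 bp outside it had a median of 48.2 (31.8 to 86.0).

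**Figure D2:**
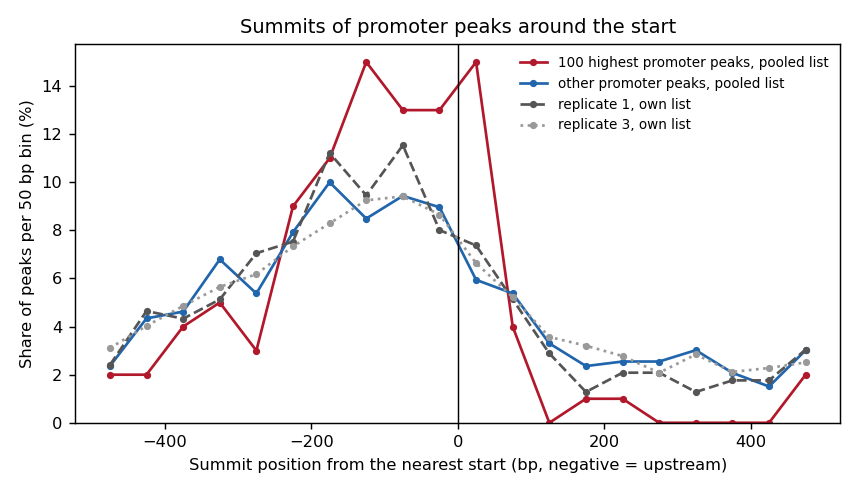
Share of promoter peaks (percent per 50 bp bin, vertical) by summit position from the nearest start (bp, horizontal, negative is upstream), for the 100 highest and the other 1060 promoter peaks of the pooled list and for each replicate's own list. Each curve holds more summits upstream than downstream in all, and 67.0% of the 100 highest lie 0 to 300 bp upstream. Their bin at 0 to 50 bp downstream, at 15%, equals their highest upstream bin. Both the 67.0% and this bin include the 3 summits of the 100 highest that lie at the start itself.

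The 1160 peaks were nearest to 1037 distinct starts, and 119 starts had at least 2 peaks. Of the 911 genes, 719 had 1 promoter peak, 150 had 2, 31 had 3, 7 had 4 and 4 had 5. The 4 genes with 5 peaks, named here for that count, were cnc, Xrp1, Svil and Men. cnc and Xrp1 encode bZIP factors of the stress response, and Men encodes a malic enzyme that makes NADPH. cnc has 10 annotated starts and Svil has 16, while Xrp1 has 4 and Men has 3. Genes with more starts had a promoter peak more often: 4.67% of genes with 1 start, 11.5% with 2, 24.9% with 3 or 4 and 49.3% with at least 5. Genes with more starts offer more sequence within 500 bp of a start and are also longer, with median lengths of 1.73, 3.53, 9.72 and 17.4 kb in the same order, and the part of each in this trend was not tested. Over all 11749 autosomal protein-coding genes, 7.75% had a promoter peak and 0.562% had one in the optimal list.

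The AP-1 site was most frequent under the highest promoter peaks. TGACTCA on either strand, no farther than 100 bp from the summit, was present in 20 of the 100 highest (20.0%, 95% Wilson interval 13.3 to 28.9) and in 53 of the other 1060 (5.00%, 3.84 to 6.48). The odds ratio was 4.75 (Fisher's exact test, two-sided over peaks, p = 8.14e-07, adjusted p = 8.14e-06 by Benjamini-Hochberg over 10 motifs). With only the highest peak per gene the shares were 21.0% and 4.44%. In the 25 highest the site was present in 9 (36%), in ranks 26 to 100 in 14.7%, in ranks 101 to 300 in 6.00%, in ranks 301 to 600 in 5.00% and in ranks 601 to 1160 in 4.64%. In all, 73 promoter peaks (6.29%) in 72 genes held the site, where the share over all autosomal pooled peaks was 5.53%. Around the starts of all autosomal protein-coding genes it was lower: 1.66% of 16298 starts had the site within 100 bp.

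Within 500 bp of the start itself, 36.7% of the 98 starts of the 100 highest peaks had TGACTCA, against 16.6% of the 1037 starts of all promoter peaks and 8.44% of all autosomal protein-coding starts. The sites crowded at the summit. In the 100 highest there were 2.16 sites per kb of sequence at 0 to 25 bp from the summit, 1.00 at 26 to 50 bp, 0.400 at 51 to 100 bp and 0.600 at 101 to 200 bp. In the other 1060 the values were 0.314, 0.302, 0.198 and 0.179. The median distance from site to summit was 24.5 bp in the 100 highest and 36 bp in the others. Of the 73 promoter peaks with the site, 42 had it upstream of the start and 31 downstream.

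**Figure D3:**
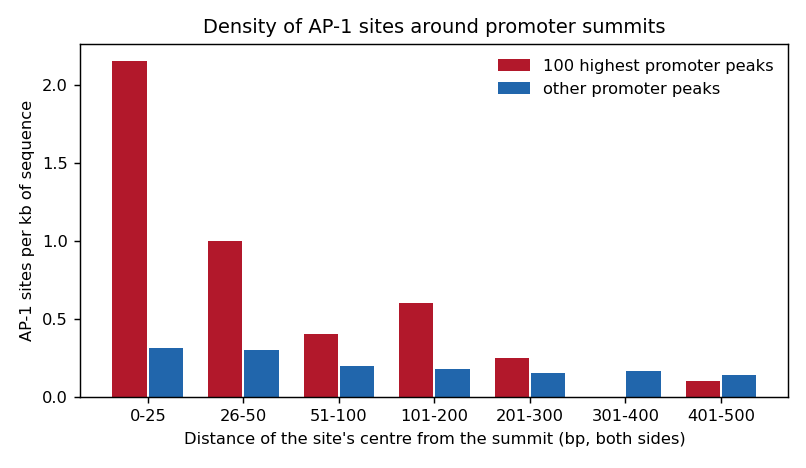
AP-1 sites per kb of sequence (vertical) by distance of the site's centre from the summit (bp, both sides, horizontal), in the 100 highest and the other 1060 promoter peaks. The bar of the 100 highest at 0 to 25 bp is at 2.16 per kb, from 11 sites, against 0.314 in the others, from 17 sites. At 101 to 200 bp the 100 highest stand at 0.600 per kb, from 12 sites, and the bars of both sets lie between 0 and 0.250 per kb beyond 200 bp.

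Promoter peaks that held the site were found in both replicates more often, a measure that follows rank. Of the 73, 48 (65.8%) were found in both replicates, against 516 of the 1087 without it (47.5%; Fisher's exact test, two-sided, p = 0.00344). Within ranks the difference did not pass the test: in the 100 highest it was 19 of 20 with the site and 64 of 80 without (exact test, p = 0.182), and in the others 29 of 53 (54.7%) and 452 of 1007 (44.9%; exact test, p = 0.202). This split by rank was added after the data were seen. All 9 of the 25 highest peaks with the site were in both replicates. The 15 highest site-bearing peaks ranged between 370.35 at CG11050 and 129.96 at cnc in the pooled list, and include osi, Sirt1, Ufsp1, a UFM1-specific protease gene, CG14907, Fer2LCH and jvl. Of these, Sirt1 had 161.82 in the pooled list, 95.9 in replicate 1 and 84.2 in replicate 3. Fer2LCH had 147.57 in the pooled list, 64.0 in replicate 1 and 90.2 in replicate 3, and cnc had 129.96 in the pooled list, 57.4 in replicate 1 and 74.7 in replicate 3.

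The site was not detectably more frequent at promoters than in introns. It was present in 73 of 1160 promoter peaks (6.29%, 5.03 to 7.84) and in 106 of 1766 intron peaks (6.00%, 4.99 to 7.21; Fisher's exact test, two-sided, p = 0.753). Promoters of noncoding genes had it in 11 of 177 peaks (6.21%, 3.51 to 10.8; p = 1.0), and X promoters of protein-coding genes in 7 of 140 (5.00%, 2.44 to 9.96; p = 0.709), by the same exact test. Among the 200 highest autosomal peaks, 21.1% of promoter peaks and 20.0% of intron peaks had it. At ranks 201 to 500 the shares were 6.29% of 143 promoter peaks and 18.4% of 103 intron peaks, and over the 500 highest peaks the difference, promoter minus intron, was -7.06 percentage points (Fisher's exact test, p = 0.0672). Promoters made up 45.0% of the 200 highest autosomal peaks and 47.7% of ranks 201 to 500, but 23.9% of ranks 2001 to 3854, while introns made up 35.0%, 34.3% and 47.6%.

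**Figure D4:**
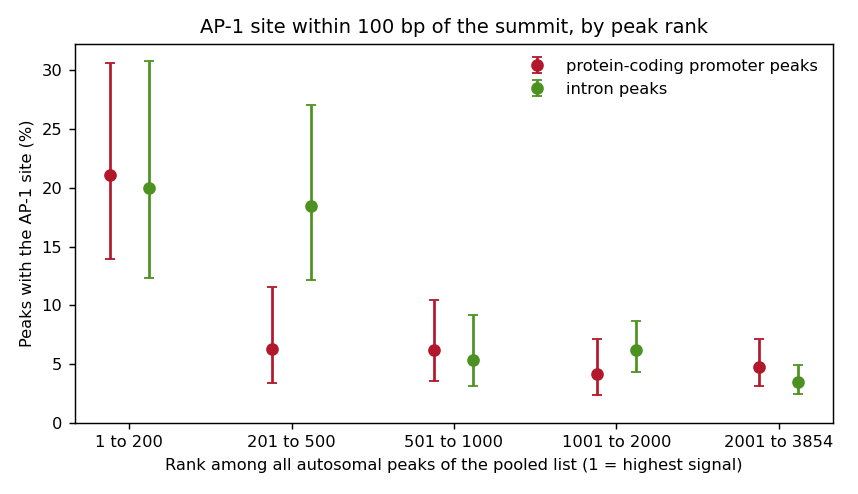
Share of peaks with an AP-1 site within 100 bp of the summit (percent, vertical) by rank among all autosomal pooled peaks (horizontal), for protein-coding promoter peaks and intron peaks, with 95% Wilson intervals. Both classes are near 20% in the 200 highest peaks, promoter peaks are at 6.29% and intron peaks at 18.4% at ranks 201 to 500, and both lie between 3.51% and 6.16% at lower ranks.

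Sequences close to the site were counted after the values were seen. Among the 100 highest promoter peaks, 38 lacked TGACTCA but held a string that differed from it in 1 letter within 100 bp of the summit, and 42 held neither, against 328 and 679 of the other 1060. Each string was also counted over all peaks, those with TGACTCA included. The most frequent strings were TGACTAA, in 13.0% of the 100 highest and 4.25% of the others, TTACTCA (9% and 5.47%) and TGAATCA (9% and 5.00%). Near all autosomal protein-coding starts they occurred in 2.39%, 2.25% and 2.28%. At least 1 of these 3 strings, without TGACTCA, was in 24 of the 100 highest and 141 of the other 1060. TGACTAA lay at Rac2, CG10527, TP53INP, Vps60 and EndoGI among the 25 highest, and TGAATCA lay near Wbp2, CG14100, Sox14, Chmp1 and osi. Of these peaks, those at Rac2, CG10527 and osi also held TGACTCA. The peak at Syp had neither TGACTCA nor any of these 3 strings.

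Of the other 9 motifs, 2 differed within the promoter peaks and 2, beside a core promoter element, between promoter and intron peaks. TATCGATA, the DNA replication-related element bound by the factor Dref, was in 9 of the 100 highest promoter peaks and in 23 of the other 1060 (exact test, adjusted p = 0.00482). Counted from the start, it lay within 100 bp of 7.14% of the 98 starts of the 100 highest (3.50 to 14.0). The share was 5.01% of the 1037 starts of all promoter peaks. The 100 highest also had more summits 0 to 300 bp upstream (67.0% against 50.5%), and the part of this in the difference was not tested. TGACGTCA, the cyclic AMP response element, was in 4 of the 100 highest and in 6 of the others (exact test, adjusted p = 0.0243). Against introns, TATCGATA was in 32 promoter peaks (2.76%) and 17 intron peaks (0.963%; exact test, adjusted p = 0.00159), a difference that did not pass with matches counted to 50 bp (exact test, p = 0.0519). TATCGATA lies within 100 bp of 5.82% of all autosomal protein-coding starts, and intron peaks lie away from starts by definition. This test therefore cannot tell kay binding from promoter sequence. Core promoter motif 1 was in 9 promoter peaks and 0 of the 1766 intron peaks, which lie away from starts by definition, so no test is given. GAGAGAG, bound by GAGA factor, was in 90 promoter peaks (7.76%) and 87 intron peaks (4.93%; exact test, adjusted p = 0.00650), but with replicate 1 or replicate 3 alone, or within 50 bp (exact test, p = 0.0634), this difference did not pass, and in the 3 stricter peak sets its sign turned. These are Fisher's exact tests, two-sided over peaks, with adjustment over 10 motifs, and TATCGATA and GAGAGAG are shown in lower-case context from the same genome, with 10 bases to either side and the motif in capitals.
Wbp2: ctaaaaagagTATCGATAtccgataatt
Hip1: tgttttccttTATCGATAaaagttaata
Syp: ttgtgccgcaGAGAGAGgttgcaatac
REPTOR: ttccattttgGAGAGAGagcaagaaga

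These windows are chr3L:12850122-12850149 for Wbp2, chr3L:12773543-12773570 for Hip1, chr3R:20778624-20778650 for Syp and chr3R:24572803-24572829 for REPTOR, all on the plus strand. Hip1, an adaptor between clathrin coats and actin, had 148.42 in the pooled list, 71.2 in replicate 1 and 72.3 in replicate 3. In promoter peaks, 88.2% of TATCGATA matches and 77.1% of GAGAGAG matches were upstream of the start, with median positions 40 and 105 bp upstream.

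The starts with a kay peak were then set against all autosomal protein-coding starts. GAGAGAG lay within 100 bp of 8.97% of the 1037 starts and of 4.52% of all 16298. TATCGATA (5.01% against 5.82%) and core promoter motif 1 (2.31% against 3.28%) had lower shares than all starts. The TATA box string TATAAA, 15 to 40 bp upstream, was at 5.69% of the starts against 7.18% of all, and the initiator string TCAGT, within 5 bp, at 12.4% against 8.63%. A start of another gene on the opposite strand within 500 bp upstream was present at 11.9% of the starts, against 25.2% of all. A peak between such a pair marked only the nearer start, while the share over all starts counted both of the pair. The nearest-start rule alone therefore lowers the first share, and no preference can be read from this difference. No test was run on these shares.

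Chromosome 4, the small and largely heterochromatic fly chromosome, held more promoter peaks per gene than the rest; it was singled out after its values were seen. Of its 80 protein-coding genes, 31 (38.8%, 28.8 to 49.7) had a promoter peak, against 880 of 11669 genes (7.54%) on the other autosomes, with no test because of that choice. The other arms ranged from 6.72% on 3R to 8.32% on 2L. The replicates alone gave 23.8% of the genes on chromosome 4 in replicate 1 and 65.0% in replicate 3, against 4.24 to 4.89% and 18.1 to 19.8% on the other arms. The difference was present both among genes with 1 start (10 of 42 genes against 398 of 8692) and among genes with more (21 of 38 against 482 of 2977).

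The 49 promoter peaks of chromosome 4 were weak. The highest was at Mitf, a regulator of lysosome genes, at rank 73, with 112.58 in the pooled list, 59.4 in replicate 1 and 50.2 in replicate 3. Next came gw, an effector of microRNA silencing, with 76.5 in the pooled list, then Cals with 73.7 and Ank with 72.9. The median signal was 40.2 on chromosome 4 and 48.0 on the other autosomes. The share found in both replicates was 51.0% on chromosome 4 and 48.5% elsewhere. In all, 0 of the 49 were in the optimal list, against 69 of 1111 elsewhere (6.21%). Near the summit, 0 of the 49 held TGACTCA, against 73 of 1111 elsewhere (6.57%). The upper Wilson bound for 0 of 49 is 7.27%, above both shares elsewhere, so neither count sets chromosome 4 apart. Peaks of every class were denser there, at 172 per Mb against 30.1 to 40.6 per Mb on the other arms, and 47.5% of its genes had more than 1 start. The sequence within 100 bp of its promoter peak summits had a median GC content of 31.8%, against 35.3 to 36.8% on the other arms, and the part of these features in the difference was not tested.

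Gene groups differed widely in how many members had a promoter peak, set against 7.75% of all autosomal protein-coding genes. No test was run on the lists, because they were chosen with earlier results of these data known. Their shares are descriptions. Values in brackets are the pooled signal of a gene's highest promoter peak. Lists also differed in their share of genes with more than 1 start, which is given for several of them. Over all autosomal protein-coding genes that share was 25.7%, and the 7.75% is not matched for it. Counts of many lists moved with the library: without replicate 1 the share over all genes was 9.80% and without replicate 3 it was 4.65%, and where a list's count moved by more than 1.5 times, both counts are given. Among bZIP factors, 7 of 18 had one: Jra, vri (140.78), cnc (129.96), REPTOR (119.42), a factor of the response to low TORC1 activity, Xrp1 (118.12), crc, the fly ATF4, and Pdp1. Of the 18, 61.1% had more than 1 start. In the JNK cascade and its targets 8 of 19 genes had one (68.4% with more than 1 start): chic at rank 3, the septin gene pnut (118.43), raw, a negative regulator of JNK signalling (98.2), the JNK phosphatase puc (90.7), Mkp3, the matrix metalloproteases Mmp1 and Mmp2, and bsk, the kinase itself (39.95).

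Antioxidant response genes had 9 of 21 (47.6% with more than 1 start). They were Fer2LCH, cnc, its inhibitor Keap1 (118.24), Xrp1, the glutathione transferases GstD1 (98.6) and GstE1, catalase (Cat, 90.5), Men and Idh. Actin and myosin genes had 8 of 30, led by chic, Rac2 and Rho1 (132.18), and the lowest was Arpc2, a subunit of the Arp2/3 complex (35.8). Rab GTPases had 4 of 20: Rab5, Rab7 (127.85), Rab6 (65.1) and Rab8, with 7 without replicate 1 and 2 without replicate 3. Endocytosis and ESCRT genes had 2 of 22, Stam (96.7) and lqf (38.2), with 4 without replicate 1 and 1 without replicate 3. That list does not hold Vps60, Chmp1 or the ESCRT-III gene Vps24 (94.0), each of which had a promoter peak, so it undercounts such genes.

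Signalling and metabolic genes followed. Insulin and TOR genes had 7 of 20, among them the translation repressor Thor (161.45), REPTOR and Mitf, with the insulin receptor InR, chico and foxo (35.3) lower. Glycolysis and sugar storage had 7 of 21, led by the glycogen phosphorylase Glyp (131.60), Ald1 (64.1) and the trehalase Treh (56.3). Innate immunity had 6 of 26. They were the NF-kappa B factors Rel (151.29), Dif (80.8) and dl, with cact (89.9), an inhibitor of Dif and dl. The receptor PGRP-LC and the amidase PGRP-LB completed the 6. The clock list had 4 of 12, vri, cry (73.6), Pdp1 (65.6) and cwo. The hormone list had 3 of 12, EcR (100.90), Kr-h1 (46.3) and tai (44.1), and the Dpp list had 3 of 11, shn (85.6), Mad (40.8) and tkv (37.8), with 3 without replicate 1 and 1 without replicate 3. Heat shock genes had 5 of 32, Hsp27 (135.57), CCT1 (98.8), CCT3 (86.1), Hsc70-4 and Droj2, with 9 (28.1%) without replicate 1 and 1 (3.12%) without replicate 3.

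Genes of protein synthesis and turnover had counts that depended on the library. Cytosolic ribosomal proteins had 1 of 72 (1.39%, 0.246 to 7.46), RpS12 at 58.8, and 47.2% of them had more than 1 start. Without replicate 1 the count was 7 (9.72%, against 9.80% of all genes), and without replicate 3 it was 0. The proteasome had 0 of 38 (upper 95% Wilson bound 9.18%), aminoacyl tRNA synthetases 1 of 29, AspRS (40.7), and translation factors 2 of 52, Thor and eIF4G1 (34.0). Without replicate 1 these 3 lists had 3, 4 and 6 (7.89%, 13.8% and 11.5%), and without replicate 3 they had 0, 1 and 1. Mitochondrial ribosomal proteins had 7 of 62, with mRpL41 first, mRpL20 (84.3) and mRpS6 (52.0) after it, and 7 without replicate 1 and 3 without replicate 3. The respiratory chain had 5 of 75, COX7AL2 (61.8), ND-B14.5B (50.9), ND-15 (48.8), ND-39 and COX7C, and the V-ATPase 2 of 31, Vha16-1 (75.7) and Vha68-2 (63.0). Without replicate 1 the respiratory chain had 9 and the V-ATPase 2, and without replicate 3 they had 2 and 1. Chromatin and Polycomb genes had 3 of 27, psq (78.7), Trl (48.1), which encodes GAGA factor, and Pc (35.1), and autophagy had 2 of 21, Mitf and Atg3 (39.1). Without replicate 1 these had 4 and 2, and without replicate 3 they had 1 each.

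Lists of tissue marker genes were counted last. Odorant and gustatory receptors had 0 of 154 (upper Wilson bound 2.43%, with 7.79% having more than 1 start) and cuticle proteins 0 of 91 (upper bound 4.05%). Neurons had 0 of 6, testis 0 of 11, and egg shell and yolk 0 of 8. Without replicate 1 the receptors had 2, cuticle 1, testis 1 and egg shell and yolk 1, and without replicate 3 all 4 had 0. Muscle had 1 of 8, Mhc at 34.8, found in neither replicate, and gut had 1 of 9, Mal-A1 at 41.7. Fat body had 2 of 5, Lpin at 133.51 and apolpp, on chromosome 4, at 42.6. With a limit of 250 bp from the start, fat body and gut had 0 and muscle had 1. Without replicate 1 muscle had 2 and gut 0, and without replicate 3 muscle had 0 and gut 1. Marker lists of 5 to 11 genes give wide intervals, and the tissue in which any peak arises cannot be told from whole animals.

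**Figure D5:**
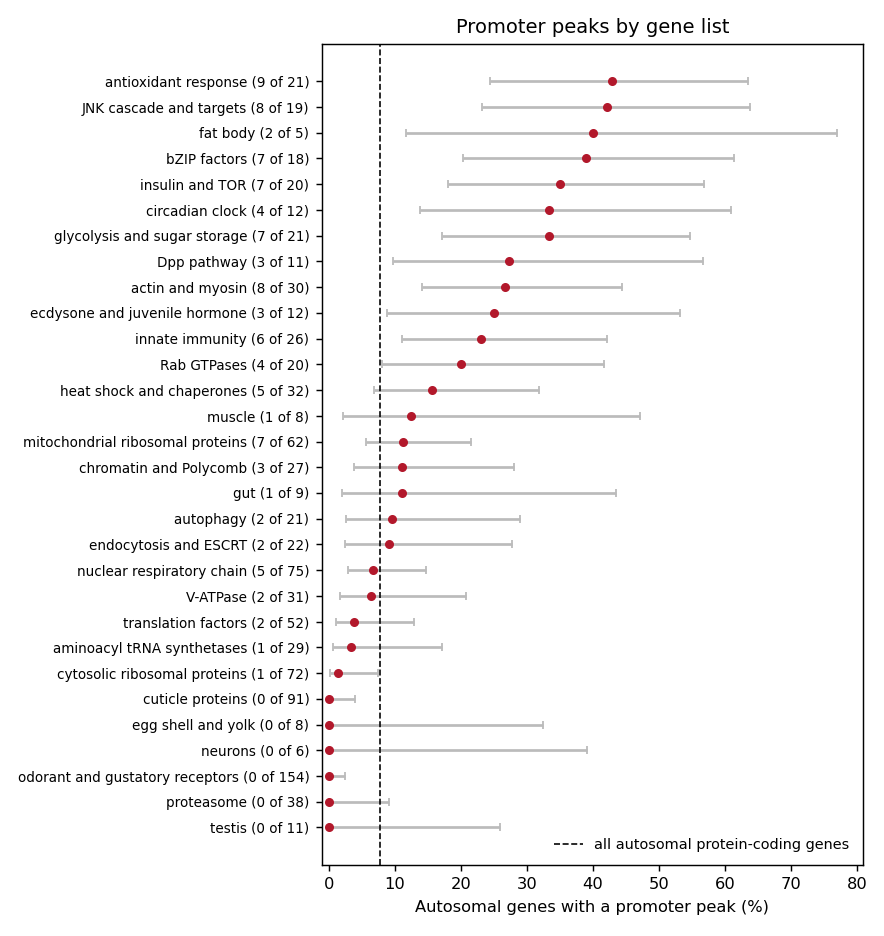
Share of autosomal genes of each list with a promoter peak (percent, horizontal), with 95% Wilson intervals and the counts beside each name; the dashed line is the share over all autosomal protein-coding genes, 7.75%. The upper 12 lists, from antioxidant response to Rab GTPases, have intervals above the line. The lists were chosen with earlier results of these data known, so this is a description and not a test. The line is not matched for starts: 25.7% of all these genes have more than 1 start, against 35.0 to 83.3% in these 12 lists. Rab GTPases have 7 of 20 without replicate 1 and 2 of 20 without replicate 3, and the Dpp list has 3 of 11 and 1 of 11. Receptors, cuticle and cytosolic ribosomal proteins have intervals below it, but without replicate 1 the ribosomal count is 7 of 72, close to the share over all genes.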

How the data were processed

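ChIP-seq peak lists of 2 replicates of 1 group were used on build dm6: 1 list per replicate, 1 list on both replicates pooled and 1 list the authors named optimal. Lists on dm3 were not used here. The authors deposited a signal per peak, the −log10 q-value per peak and the summit offset, in narrowPeak columns. The sources used here do not give the aligner, the peak caller, its settings or the IDR threshold, and read depth is unknown. Per the deposited file listing, the list of a replicate came from its own alignments with a control file.

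Summits were joined to Ensembl annotation release 115 (BDGP6.54) and to the RefSeq Release 6 genome on the same coordinates. Motif matches were counted to 100 bp either side of a summit, on both strands. The count of peaks with a property was compared by Fisher's exact test, two-sided, and Benjamini-Hochberg adjusted. Scripts used Python 3.11.15, numpy 2.4.6, pandas 2.3.3, scipy 1.17.1 and matplotlib 3.10.9, and were tested on simulated data. Named were the 25 highest promoter peaks, the 15 highest with TGACTCA, the 3 highest of each gene list, kay and Jra. Other genes named, and the strings close to TGACTCA, were chosen after their values were seen. The members and lists were chosen with earlier results of these data known. Of 354 listed symbols, 4 found no gene and 7 matched through a synonym.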

Additional observations from a re-analysis of the deposited data

How the results depend on the processing

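With a limit of 250 bp from the start there were 764 promoter peaks, against 1160 at 500 bp. The optimal list held 69 in 66 genes, and peaks with a q-value of at most 0.05 numbered 125 in 119 genes. Leaving out a replicate, with as many of the highest peaks of replicate 3 as the pooled list holds or all peaks of replicate 1, gave 624 to 1399 promoter peaks in 546 to 1151 genes. The downstream share of summits was 37.6% at 1000 bp, 18.8% in the optimal list and 21.6% with the q-value limit. The AP-1 difference between the 100 highest and the other promoter peaks kept its direction and its side of the threshold in all 11 alternatives. Other differences are in percentage points, promoter minus the other class. Support in both replicates was -8.76 against introns among the 500 highest peaks. The AP-1 share against introns was -7.06 in the 500 highest, -1.72 with the q-value limit and -1.31 with 1 peak per gene, an alternative added after seeing the data. Against noncoding promoters it was -0.721 with any coding start nearby, -0.830 to -0.816 in the replicates alone and -0.0723 with 1 peak per gene. GAGAGAG against introns was 1.18 within 50 bp, 1.07 to 2.03 in the replicates alone, -11.4 in the optimal list, -2.99 in the 500 highest and -3.45 with the q-value limit. TATCGATA was 0.697 within 50 bp (exact test, p = 0.0519). With the 50 bp window neither motif passed, and GAGAGAG did not in the replicates alone. The cause of these changes was not tested. Across 7 alternatives, added for the lists after seeing the data, 22 to 30 of the 30 gene lists stayed on the same side of the share over all genes. No paired analysis was possible because there is only 1 group. Read depth is unknown, and replicate 1 has the shorter list.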
